A study of Mus musculus with 35 samples.

Results

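Immunoglobulin genes and the genes that mark antibody-secreting plasma cells were followed through the colon of 35 mice on Affymetrix Mouse Gene 1.0 ST arrays. The genes were all those with a symbol starting with Ighv, Igkv, Iglv, Ighm, Ighg, Igha, Igkc or Iglc on a probe set that carries 1 gene symbol, joined by Jchain, Mzb1, Pou2af1, Tnfrsf17, Derl3, Prdm1 and Irf4. The letters of that rule found 19 of 19908 genes measured, and 18 remained once Ighmbp2 was set aside, a helicase gene that shares only the first letters. They were 3 heavy chain constant region genes (Igha, Ighg3 and Ighm), 8 kappa light chain variable genes and the 7 named plasma cell genes. No Ighv, Iglv, Igkc or Iglc gene had a probe set with a single symbol, and 16 further immunoglobulin probe sets that carry several symbols were kept apart. Values are log2 signals, so a difference of 1 is a 2-fold difference, and since each probe set binds with its own strength differences were taken only within a gene. Percentiles of mean signal say how bright a probe set was and do not rank transcripts.

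The mice were all C57BL/6N, in 7 groups of 5, and the tissue was colon collected at day 12. Axenic TG flora mice and axenic WT flora mice were germ-free animals given fecal microbiota of Reg3a-transgenic (TG) or wild-type (WT) donors 3 weeks before 3% dextran sodium sulfate (DSS), an agent that injures the colon epithelium, was put in the drinking water for 5 days. Axenic control mice also received DSS. Their label places a microbial transfer after the DSS, and whether any flora had reached them by collection is not stated in the labels. DSS TG and DSS WT mice were conventionally raised transgenic and wild-type animals given the same DSS course, and untreated TG and untreated WT mice drank water. A characteristic of the conventional samples also speaks of a microbial transfer, against their titles and the design text, and the titles were followed. The labels state neither the promoter that drives the transgene nor the age or sex of the mice.

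Plasma cells are B lineage cells that have stopped dividing and secrete antibody. In the gut most of them make IgA, whose alpha heavy chain is encoded by Igha, and the joining chain encoded by Jchain links IgA into dimers and IgM into pentamers that the epithelium can carry into the lumen. Germ-free animals are known for few intestinal IgA plasma cells, which accumulate once microbes colonise the gut. Each B cell clone expresses 1 rearranged variable gene per chain, so the signal of a single variable gene depends on which clones are present as well as on how many cells there are.

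The 8 epithelial markers Epcam, Cdh1, Krt8, Krt20, Vil1, Cdx1, Cdx2 and Muc2 had mean signals between the 86.7th and the 100th percentile of all genes. The mean of 8 smooth muscle genes lay between 9.54 and 11.25 in every mouse, so the samples held colon wall and not epithelium alone, although the title of the series names epithelial cells. The markers of the plasma cell label, Jchain, Pou2af1 and Mzb1, stood at the 90.6th, 72.4th and 57.9th percentile. Deposited medians of the arrays ranged from 6.65 to 6.95, and correlations between arrays ranged from 0.871 to 0.994 over 595 pairs, so no array was a copy of another. In bulk tissue, fewer cells of a type and less RNA per cell cannot be told apart.

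These genes were among the most variable on the array. Over 35 mice 5 of the 18 were among the 1% of genes with the largest SD and 10 were among the top 5%. Igkv9-120 had an SD of 1.68, Jchain 1.52, Igkv10-96 1.40 and Igkv8-30 1.20, against a median of 0.263 over all genes. The group with the highest mean was axenic TG flora for 14 of the 18 genes and axenic WT flora for the other 4. The lowest mean fell in axenic controls for 11 genes, in untreated WT mice for 3, in untreated TG mice for 2, and in DSS WT and axenic WT flora mice for 1 each. The highest and lowest group was not counted over all genes. No background stands beside these counts, so they are not read as a result about the 18. Tnfrsf17, the receptor BCMA through which plasma cells take up survival signals, had the smallest SD of the 18, at 0.246, near the median of all genes. Its probe set stood at the 32.7th percentile of mean signal.

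**Figure D1:**
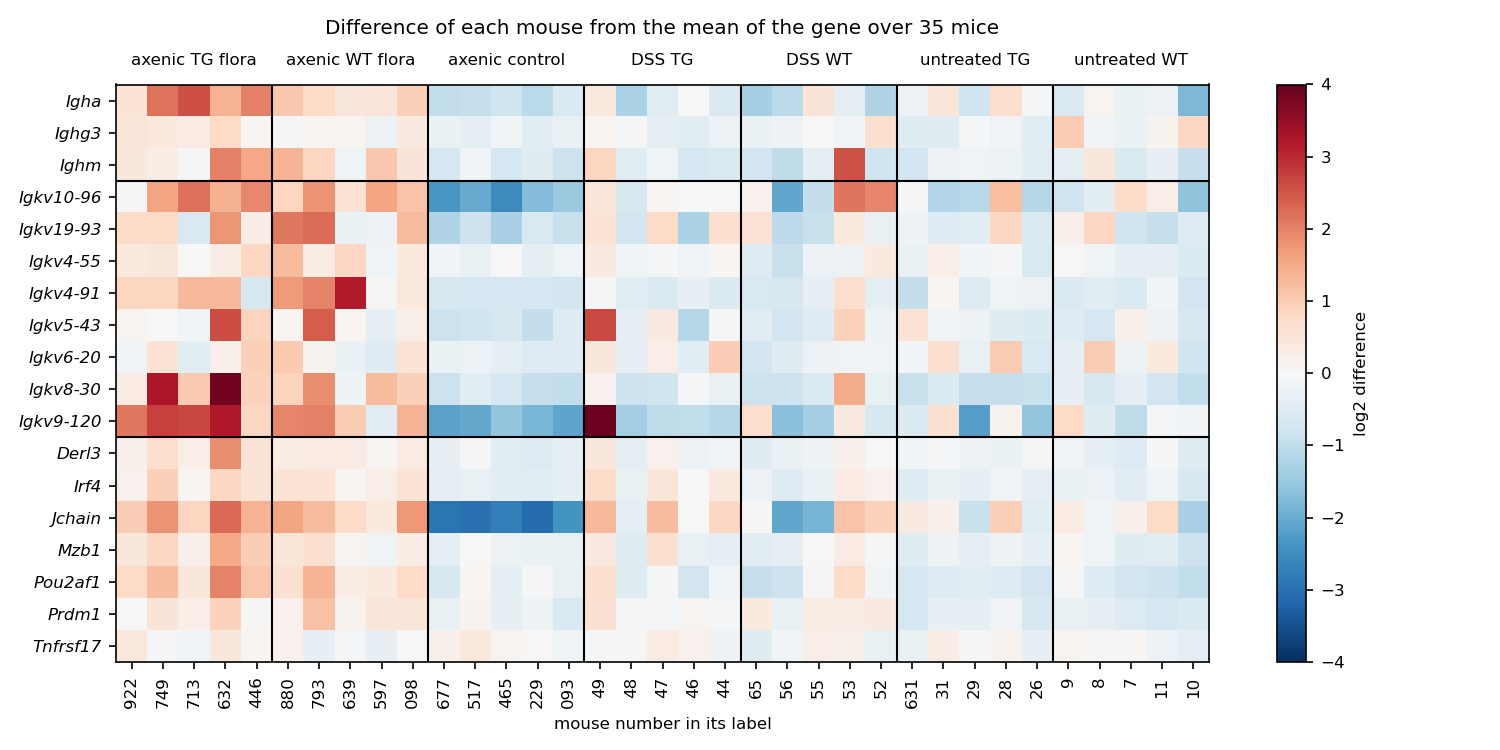
Each cell is the log2 signal of 1 gene in 1 mouse minus the mean of that gene over 35 mice, with red above and blue below it, genes grouped as constant region, variable and plasma cell genes from top to bottom, and mice grouped by the 7 groups. The axenic controls form a blue block that is deepest for Jchain, Igkv10-96 and Igkv9-120, both flora groups are mostly red, and single dark cells such as Igkv9-120 in DSS TG mouse 49 stand alone.

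The flora recipients were compared with the axenic controls to ask how far flora of either donor goes with immunoglobulin signal in formerly germ-free mice. Jchain signal was 10.25, 11.07, 10.14, 11.56 and 10.68 in axenic TG flora mice. It was 10.86, 10.56, 10.04, 9.66 and 11.02 in axenic WT flora mice. Axenic controls had 6.36, 6.28, 6.51, 6.19 and 6.90. Every recipient of either flora stood above every control, the lowest recipient at 9.66 and the highest control at 6.90. The difference was 4.29 (SE 0.25), or 19.6-fold, for axenic TG flora against axenic control, with an adjusted p of 3.4e-05 (limma, Benjamini-Hochberg over all 19908 genes, as for every adjusted p of a gene in the fits as reported). For further probe sets of a gene the adjustment was over all 21639 probe sets with 1 symbol. For axenic WT flora against axenic control it was 3.98 (SE 0.24), or 15.8-fold, with an adjusted p of 1.5e-05. Both comparisons use the same 5 controls. Jchain was also the only 1 of the 18 genes for which all 30 other mice of the study stood above all 5 axenic controls, which 0.241% of all genes did.

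Igha, the alpha heavy chain, had signals of 10.27, 11.88, 12.29, 11.10 and 11.74 in axenic TG flora mice. The axenic WT flora mice had 10.79, 10.52, 10.16, 10.20 and 10.68, and the axenic controls had 8.72, 8.79, 8.91, 8.65 and 9.14. Neither recipient group overlapped the controls, and the WT flora mice lay within 0.63 of each other while the TG flora mice spread over 2.02. The rise was 2.61 (SE 0.31, 6.11-fold, adjusted p = 0.00406) with TG flora and 1.63 (SE 0.14, 3.08-fold, adjusted p = 6.8e-05) with WT flora. A second Igha probe set gave 2.27 with TG flora and 1.33 with WT flora, with adjusted p of 0.0148 and 0.000547.

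Ighm, the mu heavy chain of IgM, had 9.07, 8.91, 8.53, 10.62 and 10.17 in axenic TG flora mice. Its signals were 9.98, 9.47, 8.45, 9.68 and 9.15 in axenic WT flora mice, against 7.95, 8.49, 7.92, 8.15 and 7.77 in axenic controls. The TG flora mice all stood above the controls, and 1 WT flora mouse, ColonAXDSSWT639, lay among them. The difference was 1.29 (SE 0.25, adjusted p = 0.00158) with WT flora and 1.41 (SE 0.36, adjusted p = 0.114) with TG flora, which missed the threshold. The 2 other Ighm probe sets passed it with TG flora, at differences of 3.36 (adjusted p = 0.00113) and 1.67 (adjusted p = 0.00168), and with WT flora they gave 3.57 and 1.30. Ighg3, the gamma 3 heavy chain of IgG3, a dim probe set at the 12.5th percentile, averaged 5.64 ± 0.26 and 5.29 ± 0.22 in axenic TG flora and axenic WT flora mice, against 4.92 ± 0.11 in axenic controls (SD, n = 5 each). It was higher by 0.72 (SE 0.13, adjusted p = 0.0483) with TG flora and by 0.36 (SE 0.11, adjusted p = 0.0132) with WT flora.

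**Figure D2:**
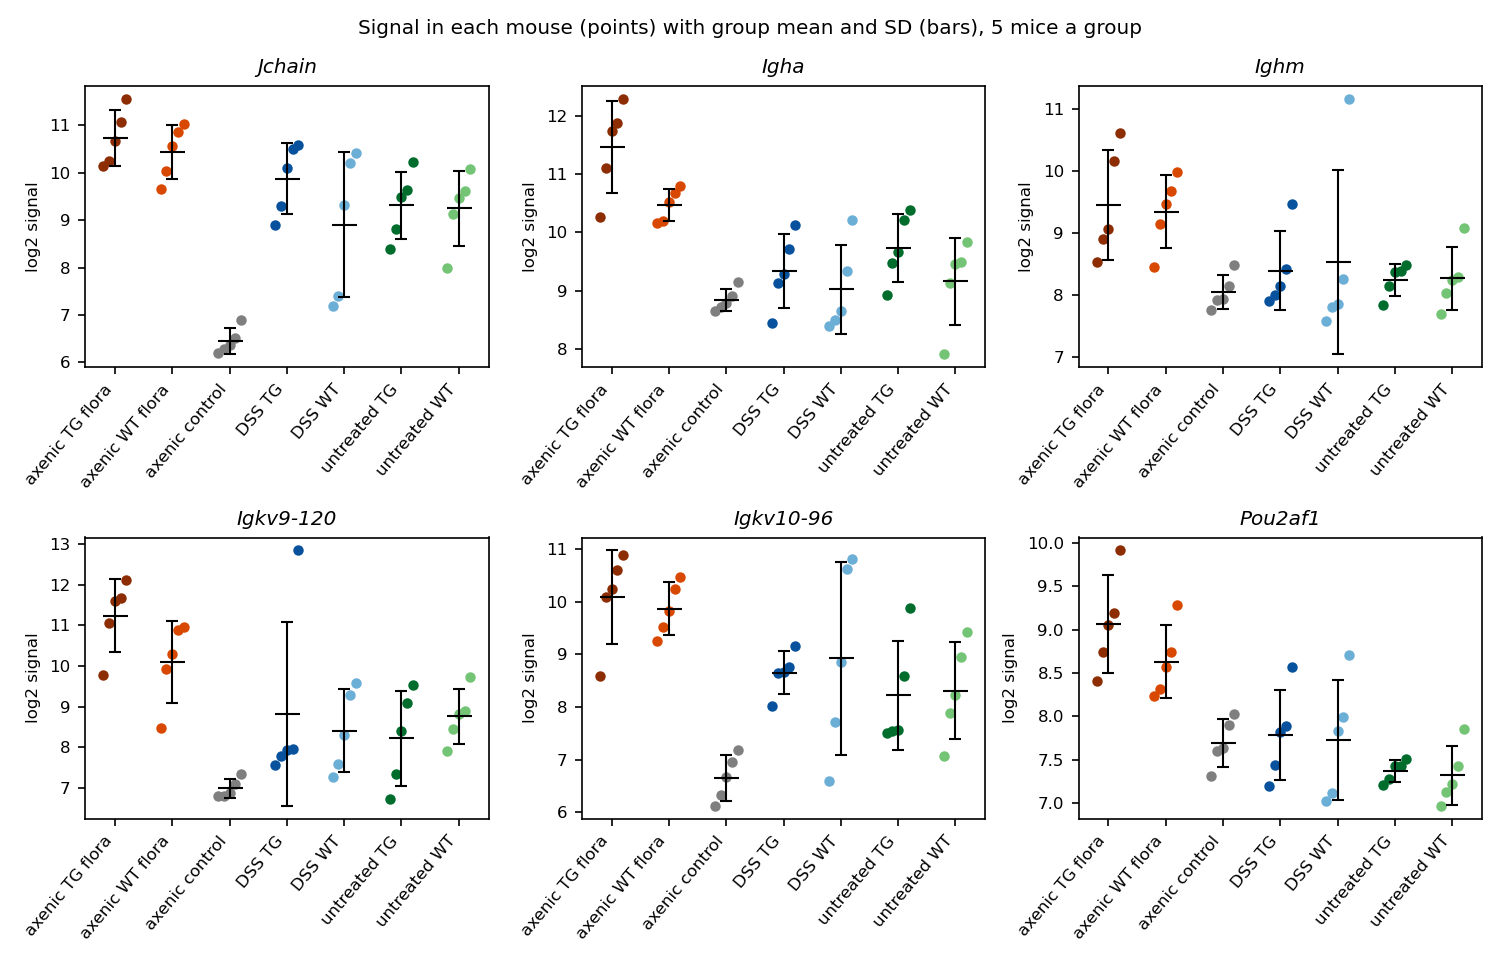
Log2 signal of Jchain, Igha, Ighm, Igkv9-120, Igkv10-96 and Pou2af1 in each of 35 mice (points), with the mean and SD of each group of 5 (bars). For Jchain the axenic controls, at 6.19 to 6.90, lie below all other mice, whose lowest is 7.19, and for Ighm and Igkv9-120 1 DSS mouse each, at 11.17 and 12.85, lies far above its group. Ighm is drawn from 1 of its 3 probe sets.

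Of the 8 variable genes, 2 rose in axenic TG flora and 7 in axenic WT flora mice against axenic controls, beside 0.327% and 32.1% of all genes that rose. The medians over the 8 were 1.51 and 1.86. Igkv9-120 had 11.05, 11.67, 11.60, 12.13 and 9.77 in axenic TG flora mice and 10.89, 10.96, 9.94, 8.47 and 10.29 in axenic WT flora mice, against 6.79, 6.88, 7.35, 7.11 and 6.81 in axenic controls. Igkv10-96 had 8.58, 10.25, 10.89, 10.10 and 10.60 in axenic TG flora mice and 9.52, 10.48, 9.26, 10.24 and 9.83 in axenic WT flora mice, against 6.33, 6.67, 6.12, 6.95 and 7.18 in axenic controls. For both genes all 10 recipients stood above all 5 controls. Igkv9-120 rose by 4.26 with TG flora (SE 0.36, adjusted p = 0.000363) and by 3.12 with WT flora (SE 0.39, adjusted p = 0.000273). Igkv10-96 rose by 3.43 with TG flora (SE 0.38, adjusted p = 0.0027) and by 3.22 with WT flora (SE 0.26, adjusted p = 4.8e-05). Igkv4-91, Igkv19-93 and Igkv8-30 rose by 2.16, 1.99 and 1.73 with WT flora, with adjusted p of 0.00289, 0.00413 and 0.000927. With TG flora the same 3 genes differed by 1.43, 1.56 and 2.65 and missed the threshold at 0.0797, 0.0897 and 0.0923. No TG flora recipient overlapped a control, but the margin was very small for Igkv4-91 and Igkv19-93. The lowest recipient and the highest control were 5.33 and 5.308 for Igkv4-91, 7.8 and 7.797 for Igkv19-93, and 5.457 and 4.689 for Igkv8-30. A second probe set for Igkv19-93 differed by only 0.35 with TG flora and by -0.21 with WT flora, with adjusted p of 0.414 and 0.219, so the 2 probe sets disagree. Kappa variable genes form a family of similar sequences, and a probe set named for 1 gene may also bind transcripts of its relatives.

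The plasma cell genes other than Jchain moved by less. Pou2af1 encodes a B cell coactivator (OCA-B) that works with octamer-binding factors at immunoglobulin promoters. It had 8.74, 9.19, 8.40, 9.92 and 9.06 in axenic TG flora mice and 8.56, 9.29, 8.23, 8.32 and 8.74 in axenic WT flora mice, against 7.31, 8.03, 7.59, 7.89 and 7.63 in axenic controls. Irf4, a transcription factor required for plasma cell formation, had 6.34, 7.13, 6.25, 6.99 and 6.72 in axenic TG flora mice and 6.71, 6.73, 6.28, 6.44 and 6.71 in axenic WT flora mice, against 5.81, 5.88, 5.75, 5.74 and 5.77 in axenic controls. No recipient overlapped a control for either gene. Pou2af1 rose by 1.37 with TG flora (SE 0.25, adjusted p = 0.0483) and by 0.94 with WT flora (SE 0.20, adjusted p = 0.0024). Irf4 rose by 0.90 with TG flora (SE 0.16, adjusted p = 0.0494) and by 0.78 with WT flora (SE 0.10, adjusted p = 0.000293).

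Mzb1, an endoplasmic reticulum protein that helps assemble and secrete IgM and IgA, averaged 8.01 ± 0.50 in axenic TG flora and 7.50 ± 0.31 in axenic WT flora mice, against 6.99 ± 0.15 in axenic controls (SD, n = 5 each). Derl3, which takes part in removing misfolded proteins from the endoplasmic reticulum, averaged 7.86 ± 0.67 and 7.42 ± 0.10 in axenic TG flora and axenic WT flora mice, against 6.80 ± 0.17 in axenic controls. Prdm1, the transcription factor Blimp-1 that drives plasma cell differentiation and is also made by other cells of the gut, averaged 6.87 ± 0.37 and 7.01 ± 0.41 in axenic TG flora and axenic WT flora mice, against 6.26 ± 0.26 in axenic controls. These 3 genes rose with WT flora, by 0.51, 0.62 and 0.75, with adjusted p of 0.00919, 0.000633 and 0.00639. With TG flora they differed by 1.02, 1.05 and 0.61 and did not pass, at 0.0723, 0.114 and 0.153. Tnfrsf17 differed by 0.06 with TG flora and by -0.21 with WT flora, with adjusted p of 0.829 and 0.186.

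The promoters of the plasma cell genes, from 250 bases before to 50 after the start site, were read from RefSeq on the GRCm38.p6 build, where 6 of the 18 genes had an entry. They were searched on both strands for the octamer ATTTGCAT, for the endoplasmic reticulum stress element (CCAAT, 9 bases of any kind, CCACG), and for the Ets and Irf composite element (GGAA, 2 bases of any kind, GAAA), which 1.74%, 0.119% and 2.72% of 32851 promoters hold. A single match was found, the stress element on the minus strand of the Derl3 promoter, at -156 to -138 from the start site. That promoter is shown with the match in capitals, and the Jchain promoter is shown beside it because Jchain separates the axenic controls from all other mice and holds none of the searched letters. The Derl3 window is chr10:75893148-75893447 on the plus strand and the Jchain window is chr5:88527848-88528147 on the minus strand, both printed in the direction of transcription. A match describes letters and not a bound site.
Derl3: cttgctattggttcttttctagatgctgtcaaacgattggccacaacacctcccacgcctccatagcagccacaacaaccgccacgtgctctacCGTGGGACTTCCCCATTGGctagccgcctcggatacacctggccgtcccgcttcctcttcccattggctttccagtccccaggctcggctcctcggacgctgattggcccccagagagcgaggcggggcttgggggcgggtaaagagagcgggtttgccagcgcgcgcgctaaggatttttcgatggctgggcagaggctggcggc
Jchain: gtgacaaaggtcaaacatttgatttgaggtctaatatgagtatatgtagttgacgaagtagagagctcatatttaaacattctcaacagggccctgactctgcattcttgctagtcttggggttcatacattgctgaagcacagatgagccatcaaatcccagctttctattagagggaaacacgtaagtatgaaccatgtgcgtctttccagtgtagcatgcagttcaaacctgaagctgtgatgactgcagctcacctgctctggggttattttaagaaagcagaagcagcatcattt

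Counted together, 7 of the 18 genes rose in axenic TG flora mice against axenic controls and none fell, beside 0.327% of all genes that rose. In the same comparison all 8 smooth muscle genes had lower means with TG flora, with a median of -0.566, and none of them passed. A fit with the smooth muscle mean as a covariate called more of the 18 and more of all genes, with the counts given under the processing. The cause of that change was not tested. In 14 of the 18 immunoglobulin and plasma cell genes all 5 recipients stood above all 5 controls, beside 1.7% of all genes. The median difference of the 18 was 1.39, against -0.0454 over all genes. In axenic WT flora mice 16 of the 18 rose and none fell, beside 32.1% of all genes that rose and 67.3% that changed either way, so that the larger count with WT flora stands before a much larger background. There 12 of the 18 did not overlap the controls and lay above them, beside 20.1% of all genes, and the median difference was 1.09 against -0.0342 over all genes. In 11 of the 18 all 10 recipients stood above all 5 controls, beside 1.42% of all genes.

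**Figure D3:**
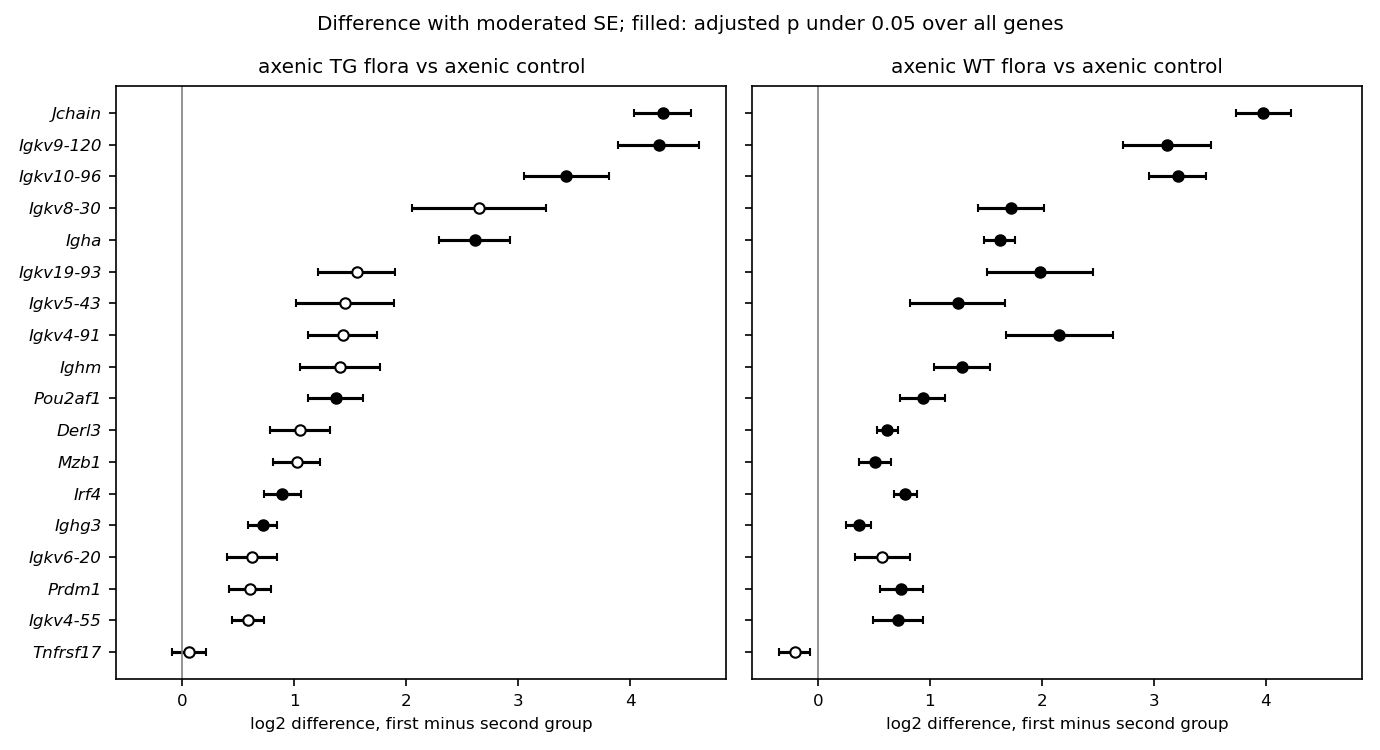
Log2 difference of each of the 18 genes, with its moderated standard error, for axenic TG flora against axenic control (left) and axenic WT flora against axenic control (right), filled where the adjusted p was under 0.05. Jchain lies at 4.29 and 3.98, 7 points are filled on the left and 16 on the right, and Tnfrsf17 lies near 0 in both.

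The count with TG flora rested on single mice. Without axenic TG flora mouse ColonAXDSSTG922 it was 17 genes, where 5307 of all genes passed in place of 67. Without axenic TG flora mouse ColonAXDSSTG749 or ColonAXDSSTG632, or without any 1 of the 5 controls, it was 4, where 27 to 80 of all genes passed. The within-array SD of the values, which describes the spread of signal on an array and not the tissue, was 1.67 to 1.94 in axenic TG flora, 1.90 to 2.03 in axenic WT flora and 1.64 to 1.78 in axenic control mice, so axenic WT flora and control arrays did not overlap. With that SD as a covariate, an alternative chosen after seeing the data, 4 genes rose with TG flora and none passed with WT flora, where 1 of all genes did. The Jchain difference with WT flora was 4.11 in that fit, and the count over all genes with TG flora is not given there.

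The next lists are read against the 32.1% of all genes that rose with WT flora and the 0.327% with TG flora, and the difference between the floras was not called for any gene of them. Of 19 secretory genes 17 rose in axenic WT flora mice, including Xbp1, the transcription factor of the secretory programme, by 0.89 (adjusted p = 0.00072), Sdc1, the plasma cell surface proteoglycan CD138 that epithelium also makes, by 0.77 (adjusted p = 0.000624), and Txndc5 and Edem2, which serve folding and disposal of secreted proteins, by 1.56 and 1.48 (adjusted p = 0.000204 and 0.00017). The median was 0.959. In axenic TG flora mice 1 of the 19 rose, Tent5c, a poly(A) polymerase that stabilises transcripts of secreted proteins, by 0.86 (adjusted p = 0.0397), while Xbp1 differed by 0.84 (adjusted p = 0.0773) and the median was 0.737. Of 14 folding chaperones 13 rose with WT flora, among them Sdf2l1 by 1.62 (adjusted p = 0.000146) and Pdia4 by 1.19 (adjusted p = 0.000327), and 0 passed with TG flora, with medians of 0.596 and 0.302. Epithelial markers rose too in WT flora mice, 6 of 8 with a median of 0.758, and epithelium also secretes protein and uses this machinery.

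B cell markers had similar median differences with both floras, 0.665 with TG flora and 0.68 with WT flora. Their mean lay between 6.68 and 8.12 in axenic TG flora mice and between 6.93 and 7.81 in axenic WT flora mice, against 6.24 to 7.25 in axenic controls, and both ranges overlapped the controls. Of 15 markers 9 rose with WT flora, among them Ms4a1, the surface protein CD20, by 1.68 (adjusted p = 0.0025), and Cd79a, part of the B cell receptor, by 1.39 (adjusted p = 0.0128). With TG flora 0 of the 15 passed, and Ms4a1 and Cd79a differed by 1.53 and 1.62 (adjusted p = 0.208 and 0.206). Cr2, a marker of follicular B cells and dendritic cells, differed by 0.67 with TG flora and by 0.50 with WT flora and did not pass. With the B cell mean as a covariate, likewise chosen after seeing the data, 2 members rose with TG flora and 10 with WT flora. Counts over all genes in those fits are not given, so no background stands beside them. Cxcl13, the chemokine that draws B cells into follicles, rose by 2.33 with TG flora (SE 0.31, adjusted p = 0.00865) and by 1.62 with WT flora (SE 0.36, adjusted p = 0.00298). It was 1 of 4 measured genes of a list of lymphoid stroma and follicle. With TG flora 1 of the 4 rose and 0 fell, with a median of 0.435. With WT flora 1 rose and 1 fell, with a median of 0.305, beside 32.1% of all genes that rose and 35.2% that fell.

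Pigr, the epithelial receptor that carries dimeric IgA into the lumen, did not pass in either comparison. It had 12.31, 12.29, 11.78, 12.03 and 12.57 in axenic TG flora mice and 12.64, 12.23, 12.15, 12.58 and 12.48 in axenic WT flora mice, against 12.50, 9.40, 12.33, 10.24 and 12.10 in axenic controls. Control mice ColonAXDSSCT517 and ColonAXDSSCT229 stood far below all others and the other 3 controls lay among the recipients. The differences were 0.88 (adjusted p = 0.381) with TG flora and 1.10 (adjusted p = 0.0866) with WT flora. All 5 pancreas genes were higher in WT flora recipients, with a median of 3.12, and their mean ranged from 6.25 to 10.03 in axenic TG flora and from 7.03 to 11.22 in axenic WT flora mice, against 6.50 to 8.58 in axenic controls. After the mean of each group was removed, the pancreas mean and Jchain correlated at r = -0.14 over the 15 axenic mice, as a description. That value does not bear on the differences between groups, which were taken out beforehand.

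The flora of transgenic and wild-type donors were compared directly to ask whether the donor's genotype mattered to the recipient. None of the 18 genes passed between axenic TG flora and axenic WT flora mice, and none of all genes did (0%). That background rested on single mice, since 4700 of all genes passed without axenic TG flora mouse ColonAXDSSTG749 and 149 without axenic WT flora mouse ColonAXDSSWT793, with 0 of the 18 each time. At an unadjusted p under 0.05, 4 of the 18 passed, beside 34.4% of all genes. Igha was higher with TG flora by 0.99 (SE 0.32, adjusted p = 0.0824), Igkv9-120 by 1.14 (adjusted p = 0.143), Mzb1 by 0.51 (adjusted p = 0.142) and Ighg3 by 0.36 (adjusted p = 0.119). Jchain differed by 0.31 (SE 0.31, adjusted p = 0.452). Igha overlapped between the groups because TG flora mouse ColonAXDSSTG922, at 10.27, lay among the WT flora mice while the other 4 lay above all of them. All 8 smooth muscle genes and all 8 epithelial genes had lower means with TG flora, with medians of -0.802 and -0.409, and none of them passed. A fit with the smooth muscle mean as a covariate was among the alternatives, but the part of tissue makeup in these differences was not tested.

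DSS was compared with no treatment within each genotype to ask what injury does to these genes in conventionally raised mice. In DSS WT mice 1 of the 18 rose against untreated WT mice, beside 3% of all genes that rose and 5.13% that changed either way. It was Prdm1, with 6.91, 6.22, 6.80, 6.80 and 6.88 in DSS WT mice, against 6.23, 6.20, 6.01, 5.80 and 5.95 in untreated WT mice. All DSS mice but mouse 56 lay above all untreated mice, and the difference was 0.68 (SE 0.15, adjusted p = 0.0233). The call was lost without any 1 of untreated WT mice 7, 10 and 11 or DSS WT mice 65, 53 and 52, and with the smooth muscle or the B cell mean as a covariate. In DSS TG mice none of the 18 passed against untreated TG mice, beside 4.55% of all genes, and 3 did at an unadjusted p under 0.05, beside 26.2% of all genes. Prdm1 had 7.13, 6.45, 6.48, 6.62 and 6.43 in DSS TG mice, against 5.82, 6.20, 6.17, 6.38 and 5.89 in untreated TG mice. The groups did not overlap, as in 5.4% of all genes with the DSS mice higher, and the difference was 0.53 (SE 0.15, adjusted p = 0.0682). Irf4 differed by 0.59 (SE 0.17, adjusted p = 0.0715) and Igkv8-30 by 0.46 (SE 0.18, adjusted p = 0.143).

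The antibody genes themselves showed no difference past the threshold after DSS. Jchain had 10.58, 8.89, 10.50, 9.29 and 10.10 in DSS TG mice, against 9.63, 9.48, 8.40, 10.23 and 8.82 in untreated TG mice. It had 9.32, 7.19, 7.41, 10.41 and 10.20 in DSS WT mice, against 9.61, 9.12, 9.47, 10.08 and 7.98 in untreated WT mice. DSS WT mice 56 and 55 lay below every untreated WT mouse, DSS WT mice 53 and 52 lay above all of them, and the TG groups overlapped. The differences were 0.56 (SE 0.39, adjusted p = 0.36) in TG mice and -0.35 (SE 0.65, adjusted p = 0.943) in WT mice. Igha differed by -0.39 (SE 0.33) in TG mice and by -0.14 (SE 0.41) in WT mice, with adjusted p of 0.445 and 0.971. Ighm averaged 8.40 ± 0.64 in DSS TG and 8.25 ± 0.26 in untreated TG mice, and 8.54 ± 1.49 in DSS WT against 8.28 ± 0.51 in untreated WT mice (SD, n = 5 each). On the probe set used, the SD of Ighm in DSS WT mice came from mouse 53, at 11.17, while the other 4 lay between 7.59 and 8.26. The 2 other Ighm probe sets ranged in DSS WT mice from 5.154 to 9.025 (SD 1.75, median 5.897) and from 6.851 to 8.244 (SD 0.54, median 7.323). The single high mouse is therefore stated for the probe set used only. The median difference over the 18 genes was 0.233 in TG mice and 0.154 in WT mice, against -0.0149 and -0.0245 over all genes.

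**Figure D4:**
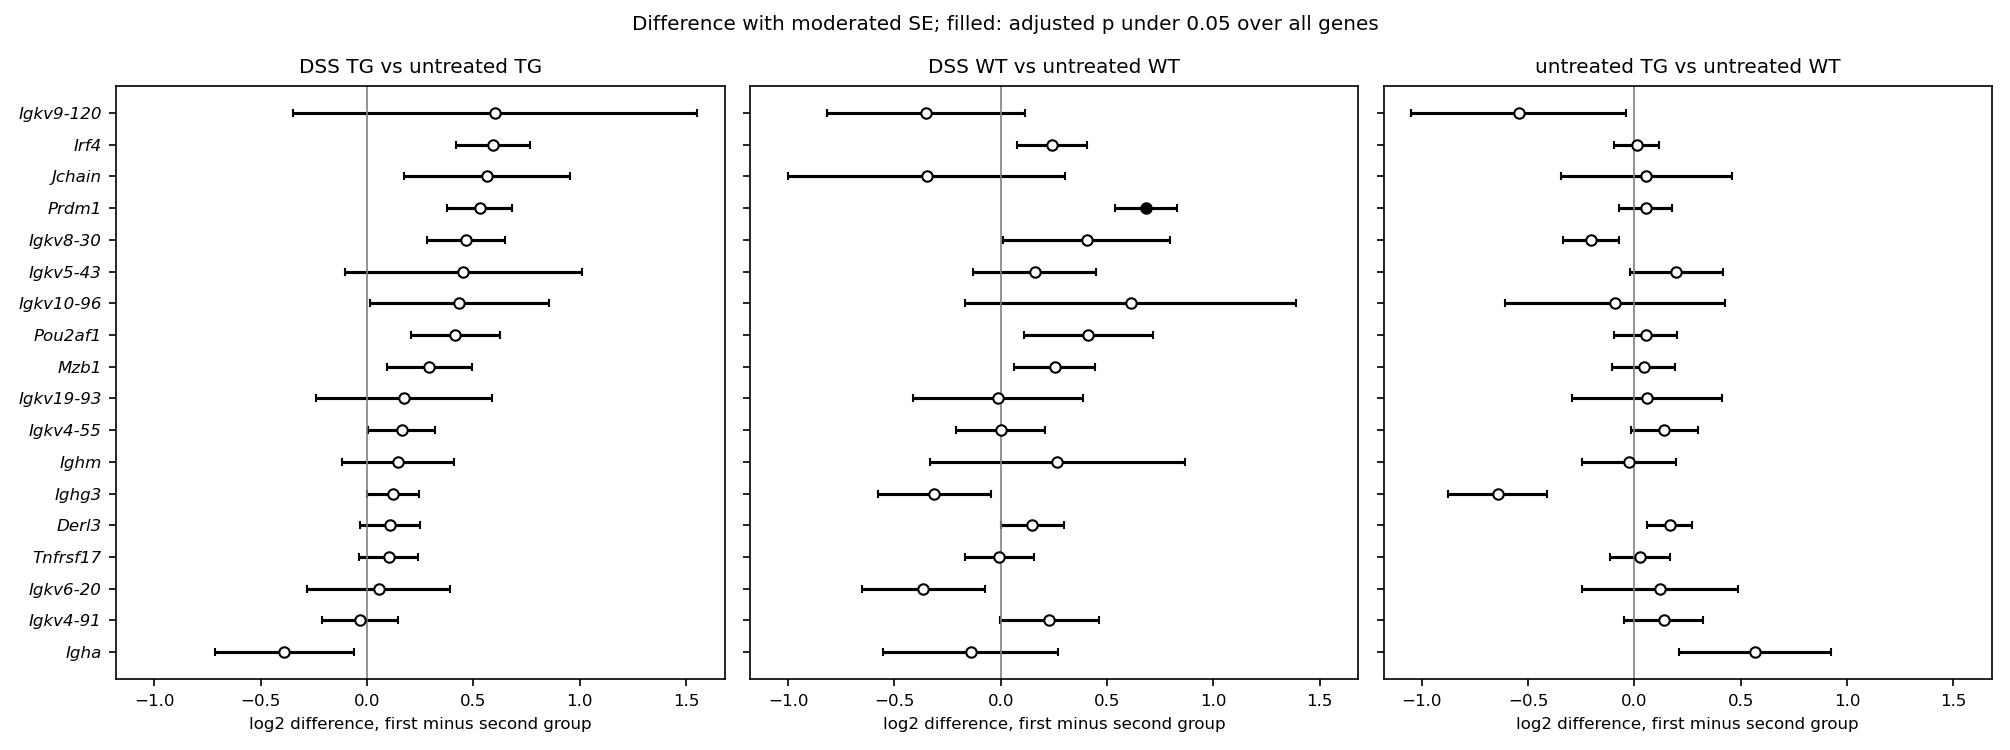
Log2 difference of each of the 18 genes, with its moderated standard error, for DSS TG against untreated TG (left), DSS WT against untreated WT (middle) and untreated TG against untreated WT (right), filled where the adjusted p was under 0.05. Prdm1 at 0.68 in the middle panel is the only filled point, and the standard errors of Igkv9-120 (0.95, left) and Igkv10-96 (0.78, middle) are the widest of their panels.

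Some folding chaperones and B cell genes passed after DSS, beside 3.46% of all genes that rose in DSS TG and 3% in DSS WT mice. In DSS WT mice 10 of 14 chaperones rose, with a median of 0.951, among them Hspa5, the chaperone BiP that binds heavy chains, by 1.22 (SE 0.13, adjusted p = 0.000603), and Hsp90b1 and Pdia6 by 1.33 and 1.43 (adjusted p = 0.00118 and 0.00145). In DSS TG mice 3 of 14 rose, with a median of 0.482, namely Sdf2l1 by 0.95, Pdia6 by 0.78 and Calr by 0.50 (adjusted p = 0.00741, 0.0189 and 0.0454). Of 19 secretory genes 4 rose in DSS WT and 2 in DSS TG mice, while Xbp1 differed by 0.05 and 0.02. Of 15 B cell markers 3 passed in DSS WT mice and 1 in DSS TG mice. Ebf1, Bank1 and Cr2 rose in DSS WT mice by 0.75, 1.39 and 1.10 (adjusted p = 0.0281, 0.0402 and 0.0462), and Pax5, the factor that keeps B cell identity, rose in DSS TG mice by 0.44 (adjusted p = 0.0476). The mean of the B cell list ranged from 6.39 to 7.74 in DSS TG, from 6.21 to 7.80 in DSS WT, from 6.05 to 6.55 in untreated TG and from 5.87 to 6.38 in untreated WT mice. Of 9 Fc receptor and transport genes 4 rose in DSS WT mice, among them the inhibitory receptor Fcgr2b by 1.86 (adjusted p = 0.00747), and 2 rose in DSS TG mice, Fcer1g by 1.70 and Fcgr2b by 1.19 (adjusted p = 0.0202 and 0.0271).

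Genotype was compared in conventional mice with and without DSS. Between untreated TG and untreated WT mice none of the 18 passed, beside 0.0753% of all genes, and 1 did at an unadjusted p under 0.05, beside 5% of all genes. That was Ighg3, with 4.74, 4.73, 5.15, 5.07 and 4.80 in untreated TG mice, against 6.23, 5.11, 4.95, 5.36 and 6.05 in untreated WT mice. The high values were those of untreated WT mice 9 and 10, the groups overlapped, and the difference was -0.64 (SE 0.23, adjusted p = 0.891). Between DSS TG and DSS WT mice none passed, beside 0.00502% of all genes, and 0 of the 18 reached an unadjusted p under 0.05, beside 5.17% of all genes, with Jchain at 0.97 (SE 0.65). The difference between the DSS effects of the genotypes passed for none of the 18, beside 0.156% of all genes, and 0 reached an unadjusted p under 0.05, beside 7.42%. Jchain's was 0.91 (SE 0.82, adjusted p = 0.922).

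Axenic mice were also set beside conventional mice given the same DSS course. The labels do not say whether housing, arrays or source differed otherwise between them. Against DSS WT mice none of the 18 passed in axenic controls, beside 0.638% of all genes, and 5 reached an unadjusted p under 0.05, beside 30.3%. Jchain, with the values given above, differed by -2.46 (SE 0.59, adjusted p = 0.079), and no axenic control reached the lowest DSS WT mouse. Jchain and Igkv4-91 were the 2 genes in which all axenic controls lay below all DSS WT mice, beside 2.25% of all genes. For Igkv4-91 the gap was very small, with the highest control at 5.308 and the lowest DSS WT mouse at 5.321. Igkv10-96 and Igkv9-120 differed by -2.27 and -1.42 (adjusted p = 0.108 and 0.0969). Igha averaged 8.84 ± 0.19 in axenic control and 9.02 ± 0.77 in DSS WT mice (SD, n = 5 each), a difference of -0.18 (SE 0.31, adjusted p = 0.671). Without DSS WT mouse 55 the count was 4 genes and without DSS WT mouse 56 it was 1. Counts over all genes in those fits are not given, so these counts are not read as a result about the 18.

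Axenic WT flora mice did not pass against DSS WT mice in any of the 18 genes, beside 0% of all genes, although 10 of the 18 reached an unadjusted p under 0.05, beside 8.21% of all genes. Igha differed by 1.45 (SE 0.32, adjusted p = 0.43), Igkv4-91 by 1.73 (SE 0.53, adjusted p = 0.512) and Jchain by 1.52 (SE 0.62, adjusted p = 0.567). In axenic TG flora mice 4 of the 18 rose against DSS TG mice, beside 1.02% of all genes that rose. TG names the flora donor in the first of these groups and the mouse itself in the second. Host and germ-free history therefore cannot be told apart in this comparison. Igha had 10.27, 11.88, 12.29, 11.10 and 11.74 in axenic TG flora mice, against 10.12, 8.44, 9.29, 9.72 and 9.13 in DSS TG mice. The groups did not overlap, as in Igkv8-30 and in 1.43% of all genes with the recipients higher, and the rise was 2.11 (SE 0.38, adjusted p = 0.00905). Pou2af1, Igkv10-96 and Ighg3 rose by 1.28, 1.43 and 0.62 (adjusted p = 0.0255, 0.0429 and 0.0259), with overlapping groups. In the same comparison 7 of 8 smooth muscle genes fell, with a median of -0.938 and list means of 9.54 to 10.48 in axenic TG flora and 10.73 to 11.18 in DSS TG mice. With the smooth muscle mean as a covariate, which did not overlap between these groups, 0 of the 18 and 7 of all genes passed, while Igha differed by 3.17 (adjusted p = 0.0986). The count was 1 without DSS TG mouse 48, 46 or 44 or axenic TG flora mouse ColonAXDSSTG632, and 2 without DSS TG mouse 47 or axenic TG flora mouse ColonAXDSSTG713. Counts over all genes without these mice are not given, so no background stands beside those counts of the 18.

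Single variable genes peaked in single mice. In DSS TG mouse 49 Igkv9-120 stood at 12.85, the highest value of any of the 35 mice, while the other 4 DSS TG mice had 7.58, 7.93, 7.95 and 7.79. Igkv5-43 stood at 7.94 in the same mouse, at 7.93 in axenic TG flora mouse ColonAXDSSTG632 and at 7.72 in axenic WT flora mouse ColonAXDSSWT793, and its highest value in any other mouse was 6.21. Mouse 49 was the highest of its group in 14 of the 18 genes, with Ighm at 9.48 (next 8.43), Pou2af1 at 8.57 (next 7.89) and Jchain at 10.58 (next 10.50), and its B cell mean of 7.74 was also the highest (next 7.21). Other groups held such a mouse too, with 12 genes in ColonAXDSSTG632, 10 each in ColonAXDSSWT793 and DSS WT mouse 53, and 9 in ColonAXDSSCT517. The same count over all genes is not given. Igkv4-91 peaked at 9.12 in axenic WT flora mouse ColonAXDSSWT639, whose Igkv8-30, at 4.95, was the lowest of that group. Igkv8-30 peaked at 8.99 and 8.39 in axenic TG flora mice ColonAXDSSTG632 and ColonAXDSSTG749, and its other 3 mice had 5.46, 6.17 and 6.05.

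Within groups, mice with more Jchain signal also had more signal of some other plasma cell genes. After the mean of each group was removed, Irf4 followed Jchain over 35 mice with Pearson's r = 0.772 and Spearman's rho = 0.799 (adjusted permutation p = 9e-05 for both, over 9 genes tested, where the raw p of 1e-05 is the smallest that 100000 permutations can give). Mzb1 had r = 0.555 and rho = 0.558 (adjusted permutation p = 0.0039 and 0.00717), and Derl3 had r = 0.509 and rho = 0.584 (adjusted permutation p = 0.00387 and 0.0049). Pou2af1 had r = 0.512 and rho = 0.434, with adjusted permutation p of 0.0398 and 0.07. Without the 2 mice farthest from the median of Jchain, r was 0.766 for Irf4, 0.619 for Mzb1, 0.558 for Derl3 and 0.549 for Pou2af1. Igha, with r = 0.243 and rho = 0.269, did not pass (adjusted permutation p = 0.362 and 0.246), nor did Ighm, Prdm1, Ighg3 and Tnfrsf17, at r of 0.446, 0.335, 0.154 and 0.075. Without the same 2 mice, r was 0.426 for Igha, so its low value depended on them. It was then 0.397, 0.279, 0.114 and 0.205 for Ighm, Prdm1, Ighg3 and Tnfrsf17. No p was computed without the 2 mice. Among the 20 conventional mice Irf4 alone passed, with r = 0.8, and among the 15 axenic mice Irf4, Mzb1 and Derl3 did, with r of 0.772, 0.749 and 0.67.

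**Figure D5:**
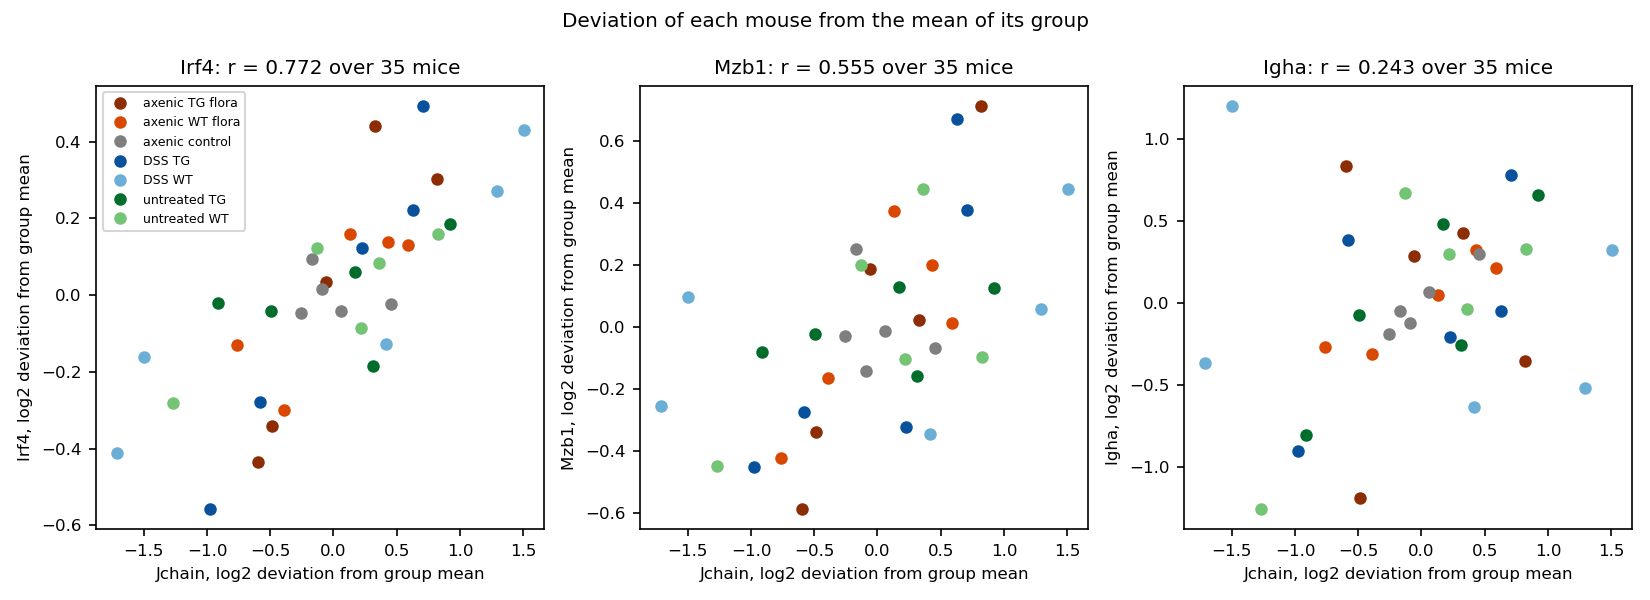
Deviation of each of 35 mice from its group mean, with Jchain on the horizontal axis and Irf4, Mzb1 or Igha on the vertical axis, in log2 units and coloured by group. The points follow a line for Irf4 (r = 0.772), less closely for Mzb1 (r = 0.555), and scatter for Igha (r = 0.243). Without the 2 mice farthest from the median of Jchain, these r were 0.766, 0.619 and 0.426.

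As a description, the mean of the 8 variable genes correlated with Jchain at r = 0.798 over 35 mice, and single variable genes ranged from 0.197 for Igkv4-91 to 0.748 for Igkv10-96. Among the 20 conventional and the 15 axenic mice, Igkv10-96 had r of 0.886 and 0.0781, and Igkv4-91 had 0.461 and 0.0268. Igkv4-55 was also lower among the axenic mice, at 0.575 and 0.387. Igkv19-93, at 0.578 and 0.734, and Igkv6-20, at 0.459 and 0.631, were higher among them. Igkv8-30, Igkv5-43 and Igkv9-120 were higher by less, at 0.525 and 0.595, 0.513 and 0.554, and 0.518 and 0.56. The mean of the 8 had 0.834 and 0.767. The list means correlated at 0.597 for the secretory genes, 0.459 for B cells, 0.441 for colon epithelium and -0.125 for smooth muscle. All of these values share the arrays they were read from.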

How the data were processed

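RNA from 35 colon samples (200 ng each) was hybridised to Affymetrix Mouse Gene 1.0 ST arrays, 1 array a mouse. The deposited values are log2 signals made by RMA in Affymetrix Expression Console 1.1, per the submitters' processing notes, and no value column was left out. They cover 28090 probe sets. GEO's platform annotation gave 21639 of them 1 symbol, 1539 several and 4912 none, and symbols were updated through gene IDs. Each of 19908 genes was represented by its probe set with the highest mean.

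Each of 10 pairs of groups, and the DSS by genotype interaction, was fitted with limma 3.58.1 in R 4.3.3 (lmFit, eBayes) on the groups of that comparison, two-sided, with Benjamini-Hochberg adjustment over all genes and calls at an adjusted p under 0.05. No filter on low values was used, so all 18 genes entered every fit, and fits were tested on simulated data. The labels do not say that mice came from separate litters or cages, so p-values measure only the spread between these mice. Correlations were permuted within groups 100000 times (two-sided). Arrays have no read depth, and their number limits the precision.

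Members and gene lists were chosen with earlier results of these data known. Every constant region and plasma cell gene is named. Variable genes could be named in each comparison from the 5 called genes with the smallest p in each direction, or the 3 with the smallest p where none was called, plus the 3 with the largest SD. Of other lists, up to 4 called genes and Ms4a1, Cd79a, Cr2, Pigr, Xbp1 and Sdc1 are named. Any further name was chosen after its values were seen. Alternatives were array weights, 1 model of all arrays, quantile normalization, a trended robust variance, other uses of probe sets, a filter on dim genes, covariates and leaving out each mouse.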

Additional observations from a re-analysis of the deposited data

Results flagged for a closer look

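Of 126 pairs of a gene and a group of 5 mice, 12 held a mouse whose gap to the nearest other mouse, divided by the range of the group, passed Dixon's critical value of 0.71. Chance flags about 1 pair in 20, and 9 of the 12 were high values.

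DSS WT mouse 53 stood apart in 3 genes. Its Ighm was 11.17, with the others between 7.59 and 8.26, its Igkv4-91 was 6.602, with the others between 5.32 and 5.62, and its Igkv8-30 was 6.63, with the others between 4.27 and 4.83. DSS TG mouse 49 stood apart in 2 genes, with Igkv9-120 at 12.85, where the others had 7.58 to 7.95, and Prdm1 at 7.135, where the others had 6.43 to 6.62.

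DSS WT mouse 52 had Ighg3 at 5.87, with the others between 4.96 and 5.20, and DSS WT mouse 56 had a low Prdm1 of 6.223, with the others between 6.80 and 6.91. Axenic WT flora mouse ColonAXDSSWT793 had Igkv5-43 at 7.723 (others 4.94 to 5.54), and axenic WT flora mouse ColonAXDSSWT597 had a low Derl3 of 7.244 (others 7.45 to 7.49). Igkv4-91 was low in axenic TG flora mouse ColonAXDSSTG446, at 5.33 (others 6.82 to 7.27). In untreated TG mice, Igkv19-93 was 9.228 in mouse 28 (others 7.83 to 8.22) and Igkv8-30 was 4.604 in mouse 31 (others 4.21 to 4.26), a dim signal in all of them.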

How the results depend on the processing

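Over 198 pairs of a gene and a comparison, 28 were called, and of 4063 values under the alternatives 3871 kept their side of the threshold and their direction if called, 98 passed it anew, 94 lost it, and 0 changed sign while called. Against axenic controls, Jchain and Igkv9-120 rose with TG flora in the fit as reported and all 20 alternatives for that comparison, with adjusted p (limma) between 2.7e-06 and 0.000704 for Jchain and between 7.4e-06 and 0.0104 for Igkv9-120. With WT flora both rose in 19 of 20, the exception being the within-array SD as a covariate, with differences of 4.11 and 4.43 and adjusted p of 0.415 for Jchain and 1 for Igkv9-120; that SD did not overlap between the groups. Counts of the 18 genes moved as follows. With array weights they were 8 for DSS WT against untreated WT, 1 for DSS TG against untreated TG, 1 for TG against WT flora, 16 for TG flora against control, 13 for axenic control against DSS WT, 2 for axenic WT flora against DSS WT and 12 for axenic TG flora against DSS TG. With all 35 arrays in 1 model they were 1 for DSS TG against untreated TG, 11 for TG flora against control, 2 for axenic control against DSS WT and 7 for axenic TG flora against DSS TG. Quantile normalization gave 2 for DSS TG against untreated TG, and the filter at the 40th percentile, which 11 of the 18 pass, gave 10 for WT flora against control. With the smooth muscle mean as a covariate the counts were 0 for DSS WT against untreated WT, 12 for TG flora against control and 0 for axenic TG flora against DSS TG. With the within-array SD, which like the B cell mean was chosen after seeing the data, they were 0 for WT flora and 4 for TG flora against control and 7 for axenic TG flora against DSS TG, and with the B cell mean 0 for DSS WT against untreated WT, 10 for WT flora and 2 for TG flora against control. The cause was not tested in any of these. Where the count over all genes under an alternative is not given, the count of the 18 cannot be set against its background. Counts over all genes moved as well: array weights called 5843 against 1022 for DSS WT, 3266 against 905 for DSS TG, 4886 against 0 for TG against WT flora (1927 with all 35 arrays and 2733 with the B cell mean), 11521 against 127 for axenic control against DSS WT and 4478 against 1350 for axenic TG flora against DSS TG, the within-array SD called 1 against 13401 for WT flora against control, and the smooth muscle mean called 7758 against 67 for TG flora against control. Leaving out 1 mouse gave 0 to 1 genes for DSS in either genotype, 16 to 17 for WT flora and 4 to 17 for TG flora against control, 0 to 4 for axenic control against DSS WT, 1 to 5 for axenic TG flora against DSS TG, and 0 elsewhere. Of 4 genes that followed Jchain over 35 mice, 1 did among conventional and 3 among axenic mice.

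No paired analysis was possible because mouse numbers are not shared between groups. Dim probe sets such as Ighg3, Igkv8-30 and Igkv5-43, between the 10.9th and the 14.3th percentile of mean signal, were the dimmest probe sets of the 18. With 5 mice a group, missing the threshold does not show that groups were alike.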

Other observations

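The 16 immunoglobulin probe sets that carry several gene symbols, and so could be given to no single gene, were all higher on average in both flora groups than in axenic controls. Differences ranged from 1.34 to 7.45 for axenic TG flora and from 0.66 to 6.54 for axenic WT flora. In 15 of the 16 all axenic TG flora mice, and in 11 all axenic WT flora mice, stood above all controls, beside 1.7% and 20.1% of all genes. These probe sets were not tested.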
